A study of Homo sapiens with 6 samples.

Results

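The genes described here are 10 transporters, channels and accessory proteins of the lysosomal membrane: SPNS1, SLC38A7, SLC38A9, CLCN7, OSTM1, CTNS, SLC17A5, MCOLN1, CLN3 and TPCN1. They were taken by name from the 57773 genes of the count table, and all 10 were among the 22010 genes with enough reads to be tested. They were chosen by a model that had already seen measured values of these libraries, above all the fold changes between cells disrupted for ZNF507 and control cells, so those fold changes are given as a description and not as a test. RNA was sequenced from HEK293 cells, a human embryonic kidney line, in 3 groups of 2 replicate cultures. All cells were transiently transfected with the Cas9 plasmid PX459, which carried no guide in the empty vector control (EV), 4 guides against the zinc finger gene ZNF146 (sgZNF146) or 4 guides against ZNF507 (sgZNF507). All 3 groups went through 36 h of puromycin selection and were grown out for 2 weeks in all before RNA was taken. The sources used here describe no isolation of clones, so each culture is taken as a mixed population, in which fewer cells with a transcript and less of that transcript per cell cannot be told apart.

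The lysosome digests macromolecules in an acid lumen, and its membrane proteins return the products to the cytosol. Amino acids, cystine, sialic acid and lysophospholipids leave through dedicated carriers, some of which also report the amino acid content of the lumen to the growth regulator mTORC1. Chloride and proton exchange supports acidification, while calcium and sodium channels release ions in response to lipids and second messengers. Loss of several of these genes causes lysosomal storage disease, among them CTNS in cystinosis, SLC17A5 in sialic acid storage disease, MCOLN1 in mucolipidosis type IV and CLN3 in juvenile Batten disease.

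The libraries held 22724439 to 28524025 counts. ZNF507 RNA was at 47.2 and 48.7 CPM (counts scaled to a common effective library size) in the sgZNF507 libraries and at 71.3 to 75.5 CPM in the other 4 libraries. ZNF146 RNA was at 99.2 and 103 CPM in the sgZNF146 libraries, 115 and 105 CPM in EV, and 88.4 and 101 CPM in sgZNF507, so its level does not check the sgZNF146 label. The 5 HEK293 markers found in the table (VIM, NEFM, PAX2, KRT8 and KRT18) summed to 1240 to 1399 CPM per library. Most of that sum was VIM, at 1012 to 1147 CPM, while PAX2 was at 5.25 to 8.03 CPM. Of 6 markers of other cell types, PTPRC and ALB were at or below 0.236 CPM in every library. The 6 summed to 65.4 and 67.4 CPM in EV, 63.6 and 68.2 CPM in sgZNF146 and 78.5 and 70.3 CPM in sgZNF507, most of it the fibroblast collagen COL1A1, and their part in the results below was not tested.

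Promoter sequences are shown first, from a search for a short motif that was added after the fold changes were seen. The motif lies near the start of the 3 genes past the threshold in sgZNF507 against EV. It also lies near the start of MCOLN1 and CLN3, which did not pass it, and its part in the fold changes was not tested. Many lysosomal genes have the E-box CACGTG upstream of their start, as the core of the CLEAR element bound by TFEB and its relatives. The reference promoters (RefSeq, 250 bases before to 50 after the first listed start of a gene) were placed on GRCh37 by exact match, and each of the 10 matched at 1 place. In the stretches of 60 bases below, written 5′ to 3′ on the strand of the gene, capitals mark each CACGTG, which reads the same on both strands. OSTM1, the partner subunit of CLCN7, is shown as a promoter without the motif.
SPNS1, chr16:28986014-28986073, plus strand, bases -85 to -26: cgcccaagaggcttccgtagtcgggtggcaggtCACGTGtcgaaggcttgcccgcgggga
CLCN7, chr16:1525030-1525089, minus strand, bases -60 to -1: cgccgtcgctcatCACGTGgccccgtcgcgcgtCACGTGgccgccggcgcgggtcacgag
MCOLN1, chr19:7587450-7587509, plus strand, bases -60 to -1: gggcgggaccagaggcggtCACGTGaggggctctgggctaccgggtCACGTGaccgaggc
CLN3, chr16:28503399-28503458, minus strand, bases -63 to -4: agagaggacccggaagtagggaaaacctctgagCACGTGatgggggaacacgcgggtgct
OSTM1, chr6:108395946-108396005, minus strand, bases -60 to -1: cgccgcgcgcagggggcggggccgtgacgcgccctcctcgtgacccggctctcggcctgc

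CACGTG occurred in the promoters of 5 of the 10 genes, namely SPNS1, SLC38A7, CLCN7, MCOLN1 and CLN3, against 7.43% of 27305 promoters of the same length and 9.67% of the 13157 that belong to tested genes. SLC38A7 carried its match at bases 15 to 20 after the start, so it is not in a stretch printed above. A second match of SPNS1 lay at the upstream edge of its promoter, from base -250 to -245, and a second match of CLN3 spanned its start. The longer form GTCACGTG, read on either strand and overlapping the first motif, was present in SPNS1, CLCN7, MCOLN1 and CLN3, against 4.07% of promoters of tested genes. The 8-base palindrome TCACGTGA was present in MCOLN1 and CLN3, against 1.74%. The motif therefore stood in the promoters of the 3 genes past the threshold and of MCOLN1 and CLN3, with log2 fold changes of -0.47 and 0.11 in sgZNF507 against EV, neither past the threshold. The genes were chosen for their lysosomal role and with these values known, so the shares are a description, and a match is not a measured binding site. Whether the motif is as common in other lysosomal genes was not tested.

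**Figure D1:**
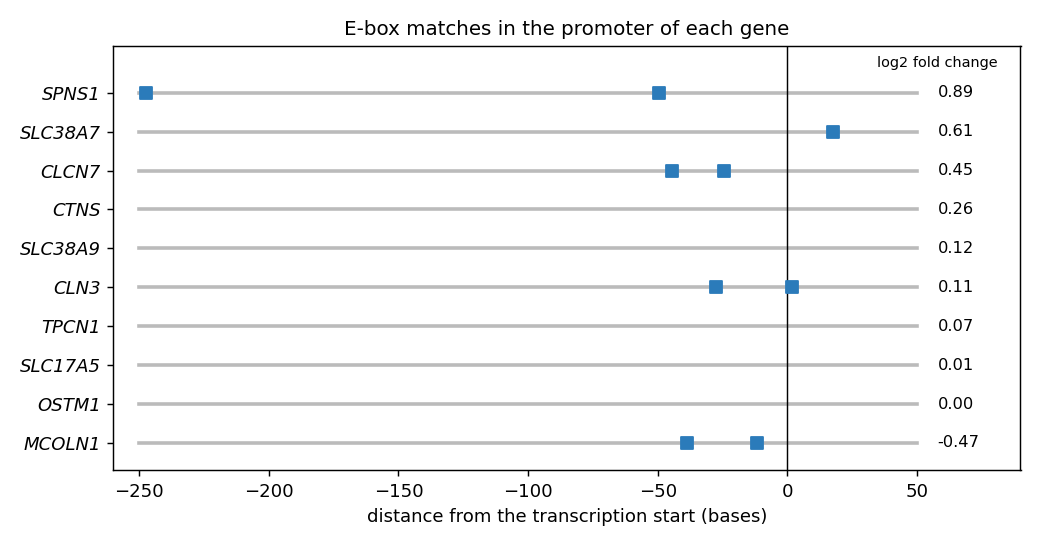
Position of each CACGTG match (blue square) in the promoters of the 10 genes, from 250 bases before to 50 bases after the transcription start, with genes ordered by their log2 fold change in sgZNF507 against EV, printed at the right. Matches lie in the 3 genes at the top, in CLN3 and in MCOLN1 at the bottom, and the other 5 promoters hold none.

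Before any comparison of groups, the 10 genes differed widely in their level in control cells. Levels of different genes are compared here as CPM per kb of annotated exon, averaged over the 2 EV libraries. CLCN7, the chloride and proton exchanger of the lysosome, was the highest at 14.7 ± 1.29 CPM per kb (SD, n = 2), above 85.6% of tested genes. CTNS, the cystine exporter, followed at 7.51 ± 0.602 CPM per kb, MCOLN1, the calcium channel TRPML1, at 7.0 ± 1.24, SLC38A7, a glutamine and asparagine carrier, at 6.68 ± 0.694, and SLC17A5, the sialic acid exporter sialin, at 6.40 ± 0.107. From CTNS to SLC17A5, each gene overlapped the next in this order between the 2 libraries.

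TPCN1, a two-pore cation channel, at 2.99 ± 0.318 CPM per kb, and SLC38A9, the arginine sensor of the mTORC1 pathway, at 2.78 ± 0.0747, lay near the median of all tested genes of 2.67 CPM per kb, and their libraries overlapped. OSTM1, which CLCN7 needs for its stability, was at 1.92 ± 0.00109 CPM per kb. SPNS1, a lysophospholipid exporter, was at 1.62 ± 0.0148, and CLN3, the Batten disease protein, was the lowest at 0.901 ± 0.169 CPM per kb, above 28.7% of tested genes. The EV libraries separated CLCN7 from CTNS, SLC17A5 from TPCN1, SLC38A9 from OSTM1, OSTM1 from SPNS1 and SPNS1 from CLN3. Another gene on the same strand shares 55.4% of the exon bases of SPNS1 and 25.3% of those of CLN3. How reads in shared exons were counted is not given in the sources used here, and its effect on these levels was not tested. These values also depend on the annotated length. With the length of the longest transcript in place of all exons, CLCN7 stayed first and SPNS1 and CLN3 last, while MCOLN1 moved from place 3 to place 2 and OSTM1 from 1.92 to 5.17 CPM per kb.

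**Figure D2:**
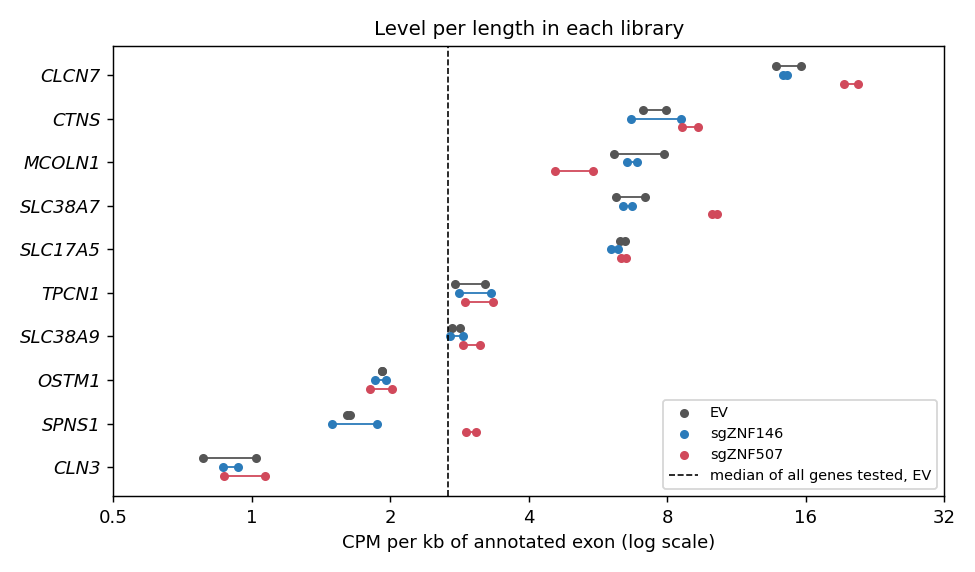
Level of each gene in CPM per kb of annotated exon (log scale) in the 2 libraries of each group, joined by a line, with genes ordered by their mean in EV and the median of all tested genes in EV as a dashed line. In EV the genes run from 0.901 (CLN3) to 14.7 CPM per kb (CLCN7), and in sgZNF507 both libraries of SPNS1 pass the dashed line.

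In sgZNF507 against EV, SPNS1, SLC38A7 and CLCN7 were higher and past the threshold of an adjusted p of 0.05, OSTM1, SLC17A5 and TPCN1 differed by less than 0.1 in log2, and MCOLN1 was lower without passing the threshold. Of the 10 genes, 3 passed, all of them higher, where 0.114% of the 22010 tested genes were called higher. Nothing is read from this count, since this comparison was known when the genes were chosen. By the order of libraries, 5 genes had both sgZNF507 libraries above both EV libraries (background 14%), 1 had both below (15.3%) and 4 overlapped. The median log2 fold change of the 10 genes was 0.11, and that of all tested genes was -0.0032.

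**Figure D3:**
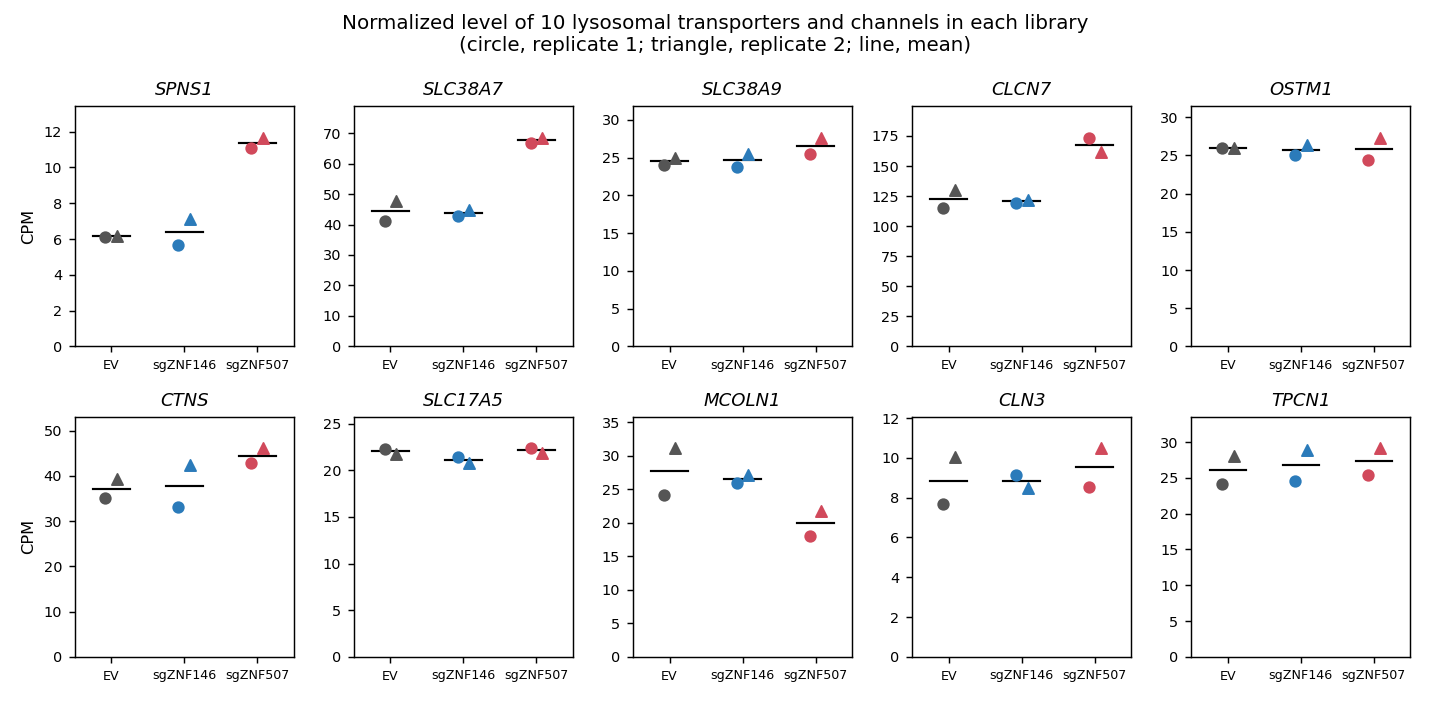
Normalized level (CPM, each panel with its own axis from 0) of the 10 genes in the 2 libraries of each group, with the mean as a line. The sgZNF507 libraries of SPNS1, SLC38A7, CLCN7 and, by a small margin, CTNS lie above the other 4 libraries, and those of MCOLN1 lie below them. The EV and sgZNF146 points overlap in 9 of the 10 genes.

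Of the carriers of amino acids and lipids, SPNS1 had the largest fold change. SPNS1 was at 6.11 and 6.19 CPM in EV, 5.67 and 7.11 CPM in sgZNF146, and 11.1 and 11.7 CPM in sgZNF507. The 2 sgZNF507 libraries stood apart from the other 4 by more than any spread within a group. The log2 fold change against EV was 0.89 ± 0.14 (SE), a fold of 1.85 with a 95% interval of 1.497 to 2.295. SPNS1 was also among the genes with fewest reads here, 144 to 338 counts per library, and it shares 2101 bases of exon on the same strand with the gene ENSG00000261067. That gene had 32 and 42 counts in EV and 45 and 70 counts in sgZNF507, and how reads of both were divided is not given in the sources used here.

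SLC38A7 was at 41.2 and 47.7 CPM in EV, 42.6 and 44.6 CPM in sgZNF146, and 66.7 and 68.5 CPM in sgZNF507, with no overlap between sgZNF507 and the rest. Its log2 fold change was 0.61 ± 0.08, a fold of 1.52 with a 95% interval of 1.34 to 1.73. SLC38A9, of the same carrier family, was at 24.06 and 24.99 CPM in EV, 23.8 and 25.4 CPM in sgZNF146, and 25.4 and 27.7 CPM in sgZNF507. Here both sgZNF507 libraries lay above EV, but the lower of them did not exceed the upper sgZNF146 library, and the log2 fold change against EV was 0.12 ± 0.09. The ratio of SLC38A7 to SLC38A9 counts within a library, which no scaling between libraries affects, was 1.71 and 1.91 in EV, 1.79 and 1.75 in sgZNF146, and 2.62 and 2.48 in sgZNF507.

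CTNS was at 35.1 and 39.3 CPM in EV, 33.1 and 42.4 CPM in sgZNF146, and 42.7 and 46.2 CPM in sgZNF507. Its sgZNF507 libraries were above the others, the lower of them by a small margin over the upper sgZNF146 library. The log2 fold change against EV was 0.26 ± 0.11 and did not pass the threshold. SLC17A5 varied least, at 22.3 and 21.8 CPM in EV, 21.5 and 20.7 CPM in sgZNF146, and 22.4 and 21.9 CPM in sgZNF507, with a log2 fold change of 0.0066 ± 0.09.

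The exchanger CLCN7 was past the threshold and its subunit OSTM1 was not. CLCN7 was at 115 and 130 CPM in EV, 119 and 122 CPM in sgZNF146, and 174 and 162 CPM in sgZNF507, so that the lower sgZNF507 library exceeded every other library. Its log2 fold change was 0.45 ± 0.07, a fold of 1.37 with a 95% interval of 1.23 to 1.52. OSTM1 was at 26.0 CPM in both EV libraries, 25.1 and 26.4 CPM in sgZNF146, and 24.4 and 27.3 CPM in sgZNF507, which spanned the other groups, and its log2 fold change was -0.0032 ± 0.09. The ratio of CLCN7 to OSTM1 counts within a library was 4.43 and 5.02 in EV, 4.76 and 4.61 in sgZNF146, and 7.12 and 5.92 in sgZNF507.

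MCOLN1 was the gene with both sgZNF507 libraries below both EV libraries. It was at 24.2 and 31.2 CPM in EV, 26.0 and 27.2 CPM in sgZNF146, and 18.1 and 21.8 CPM in sgZNF507. The EV mean was 27.7 ± 4.92 CPM and the sgZNF507 mean 20.0 ± 2.63 CPM (SD, n = 2), and the log2 fold change of -0.47 ± 0.13 (95% interval -0.75 to -0.19) did not pass the threshold. TPCN1, which also conducts cations out of the lysosome, was at 24.1 and 28.1 CPM in EV, 24.6 and 28.9 CPM in sgZNF146, and 25.4 and 29.2 CPM in sgZNF507. These groups overlapped, with a log2 fold change of 0.07 ± 0.11. CLN3 was at 7.67 and 10.02 CPM in EV, 9.14 and 8.51 CPM in sgZNF146, and 8.55 and 10.5 CPM in sgZNF507, likewise overlapping, with a log2 fold change of 0.11 ± 0.16 on 191 to 304 counts per library. Of its exons, 2480 bases are also annotated to ENSG00000261832 on the same strand, which had 0 counts in every library.

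With any 1 of the 4 libraries compared left out, SPNS1 was no longer called, whereas SLC38A7 was lost without EV replicate 1 and CLCN7 without EV replicate 1 or sgZNF507 replicate 1. The number of genes called among the 10 was 0 without EV replicate 1 and 1 (SLC38A7) without sgZNF507 replicate 1, and the log2 fold changes of the 3 genes stayed positive in each case. MCOLN1 was called when genes of low counts were not filtered out, which brought the count to 4.

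The comparison of sgZNF146 with EV asks whether the same genes respond when the other zinc finger gene is targeted. In sgZNF146 against EV, edgeR called 0 of the 10 genes, DESeq2 also called 0, and 0 of the 10 had an unadjusted p under 0.05 in edgeR, where 2.43% of all tested genes did. The adjusted p of edgeR was 0.9999 for each of the 10. Across all genes edgeR called 0% (0 of 22010). The log2 fold changes of the 10 genes ran from -0.06 (MCOLN1) to 0.06 (SPNS1), with a median of -0.01. The 95% intervals were narrowest for CLCN7, from -0.18 to 0.13, and widest for CLN3, from -0.35 to 0.34. These bounds are not the smallest change that the adjusted test would call. In sgZNF507 against EV, MCOLN1 at -0.47 with an interval of -0.75 to -0.19 was not called. SLC17A5 had both sgZNF146 libraries below both EV libraries (background 14.6%), none had both above (14%), and the other 9 overlapped.

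**Figure D4:**
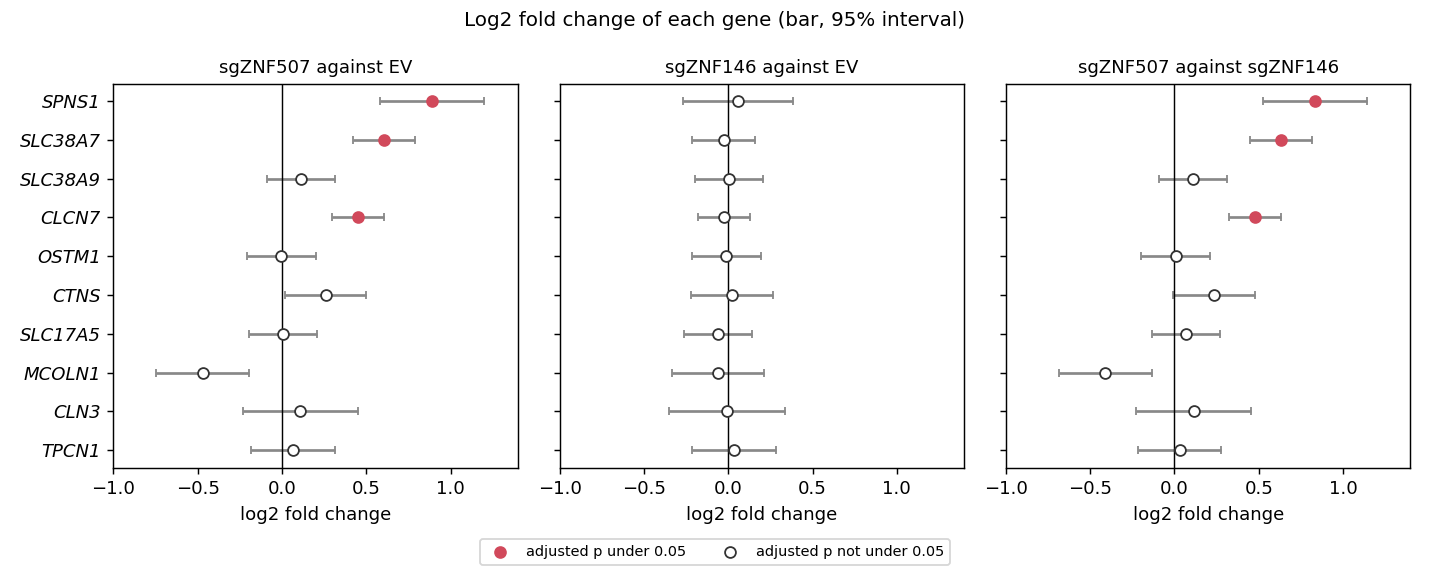
Log2 fold change with its 95% interval for the 10 genes in the 3 comparisons, filled where the adjusted p of edgeR was under 0.05. SPNS1, SLC38A7 and CLCN7 are filled in both comparisons that use the sgZNF507 libraries, and in sgZNF146 against EV all 10 lie between -0.06 and 0.06 with intervals that include 0.

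Set against sgZNF146, which received guides as well, the sgZNF507 libraries gave values close to those against EV. This comparison uses the same sgZNF507 libraries and is therefore not separate evidence. The log2 fold change was 0.83 ± 0.14 for SPNS1, 0.63 ± 0.08 for SLC38A7 and 0.48 ± 0.07 for CLCN7, the 3 genes past the threshold, where 0.104% of all tested genes were called higher. Of these, SPNS1 was nearest to the threshold, with an adjusted p of edgeR of 0.0402. With only the 4 libraries compared, edgeR did not call it (adjusted p 0.0832). Its log2 fold change over the alternatives was 0.68 to 1.01. MCOLN1 was at -0.41 ± 0.13 and CTNS at 0.24 ± 0.11, neither past the threshold. In 5 of the 10 genes both sgZNF507 libraries were above both sgZNF146 libraries (background 15.5%), in MCOLN1 both were below (16.5%), and 4 overlapped. Without either one of the sgZNF146 libraries no gene was called, and without sgZNF507 replicate 1 only SLC38A7 was.

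A wider list of transporters, channels and other proteins linked to the lysosomal membrane was compared with these 10. It includes paralogs of the 10, and the location of each protein was not checked. Of 42 further genes, 39 were tested, and SPNS3, SLC15A3 and SLC17A9 had too few reads. In EV their levels reached 29.4 CPM per kb (ATP13A2, the polyamine exporter), followed by TTYH3, an anion channel family member, at 28.1 and MFSD12, a cysteine importer, at 20.3. With the length of the longest transcript the order was MFSD12 at 50.2, ATP13A2 at 38.7 and TTYH3 at 34.9 CPM per kb. Among the 39, edgeR and DESeq2 each called 0 genes in sgZNF507 against EV, where edgeR called 0.182% of all tested genes. The list leaves out the 10 genes, which were chosen with this comparison known. Nothing is therefore read from 0 here beside the 3 called among the 10. Of the 39, 3 had an unadjusted p under 0.05 in edgeR, where 3.39% of all tested genes did. Their median log2 fold change was 0.02, their lowest -0.25 and their highest 0.29. In sgZNF146 against EV both tools again called 0, with 0 at an unadjusted p under 0.05 and a median of -0.02. In sgZNF507 against sgZNF146 both called 0, where edgeR called 0.173% of all tested genes. An unadjusted p under 0.05 in edgeR was found for 2 (background 4.03%), and the median of the 39 was 0.06.

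The largest values in sgZNF507 against EV among these 39 were those of CLCN6, SPNS2 and MFSD1. CLCN6, the chloride and proton exchanger of late endosomes and a paralog of CLCN7, was at 49.2 and 46.9 CPM in EV, 47.5 and 45.2 CPM in sgZNF146, and 61.1 and 56.5 CPM in sgZNF507. The sgZNF507 libraries exceeded the other 4, with a log2 fold change against EV of 0.29 and an adjusted p of edgeR of 0.696. SPNS2, the sphingosine 1-phosphate exporter and paralog of SPNS1, had a log2 fold change of 0.28 at only 0.803 to 2.496 CPM, and MFSD1, a carrier of dipeptides, had one of 0.27. In sgZNF507 against sgZNF146 the largest were SPNS2 at 0.57, CLCN6 at 0.34 and SLC36A1, a proton-coupled amino acid transporter, at -0.33. In sgZNF146 against EV they were SPNS2 at -0.29, MCOLN3 at 0.29 and SLC29A3, a nucleoside transporter, at -0.25. None of these passed the threshold, although CLCN6 did against sgZNF146 when genes of low counts were not filtered out.

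The remaining paralogs had smaller values in sgZNF507 against EV. CLCN3, a second exchanger of the CLCN7 family, had a log2 fold change of -0.0004 at 124 to 133 CPM. TPCN2, the paralog of TPCN1, had one of -0.03, and MCOLN2 and MCOLN3, the paralogs of MCOLN1, had -0.11 and 0.26. No test of the difference between a gene and its paralog was made.

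The Ragulator and Rag GTPases, which tether mTORC1 to the lysosome and to which SLC38A9 binds, were followed as the nearest partners of a gene described here. All 9 were tested, and edgeR called 0 in each of the 3 comparisons. Over all tested genes it called 0.182% in sgZNF507 against EV, 0% in sgZNF146 against EV and 0.173% in sgZNF507 against sgZNF146. An unadjusted p under 0.05 was found for 2 in sgZNF507 against EV (3.39% of all tested genes). It was found for 0 in sgZNF146 against EV (2.43%) and 2 in sgZNF507 against sgZNF146 (4.03%). The GTPase genes RRAGB, RRAGC and the subunit gene LAMTOR3 had the largest values in sgZNF507 against EV, at -0.43, -0.25 and 0.20 in log2. RRAGB was at 6.79 and 7.96 CPM in EV, 6.90 and 7.19 CPM in sgZNF146, and 6.12 and 4.90 CPM in sgZNF507, below the other groups in both libraries. In sgZNF507 against sgZNF146 the largest were RRAGB at -0.36, LAMTOR3 at 0.27 and RRAGD at -0.20, and in sgZNF146 against EV they were RRAGC at -0.07, LAMTOR2 at -0.07 and RRAGB at -0.07. In EV the highest per length were LAMTOR4 at 26.7, LAMTOR2 at 22.6 and RRAGA at 19.5 CPM per kb, whereas with the length of the longest transcript they were LAMTOR4 at 70.6, LAMTOR1 at 38.8 and LAMTOR2 at 36.6 CPM per kb.

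**Figure D5:**
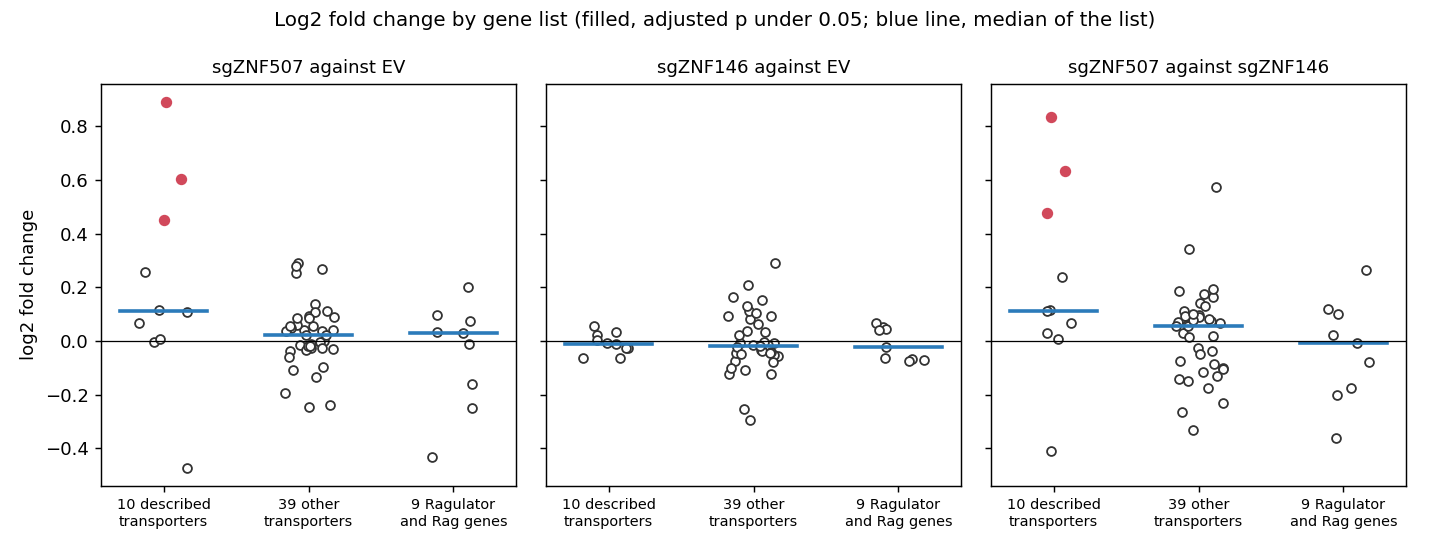
Log2 fold change of the 10 described genes, the 39 other lysosomal transporters and channels and the 9 Ragulator and Rag genes in the 3 comparisons, one point per gene, with the median of each list as a blue line. Filled points, with an adjusted p of edgeR under 0.05, occur only among the 10 genes chosen with these values known, and the medians of the lists lie between -0.02 and 0.11.

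The genes whose levels followed SPNS1, SLC38A7 and CLCN7 most closely over the 6 libraries were sought among 12356 genes with a mean of at least 5 CPM. For SPNS1 they were GNPTG, a subunit of the enzyme that tags lysosomal hydrolases with mannose 6-phosphate (Pearson r = 0.995), SUMF1, which activates sulfatases (0.991), and ULK1, a kinase of autophagy (0.989). For SLC38A7 they were SLC35B2, a carrier of the sulfate donor PAPS into the Golgi (0.9985), NAGPA, the enzyme that uncovers the mannose 6-phosphate tag (0.998), and ATG14, an autophagy subunit (0.995). For CLCN7 they were DPM3, a subunit of dolichol phosphate mannose synthase (0.991), SLC38A7 (0.986) and ATG14 (0.985). These coefficients were computed over 6 libraries that fall into 3 groups and are a description with no test. Among the 10 genes themselves, SPNS1, SLC38A7 and CLCN7 had pairwise coefficients of 0.940 to 0.986, and MCOLN1 had coefficients of -0.785 to -0.716 with them. The 3 were singled out as higher in the same 2 libraries, and MCOLN1 was lower there, so these values follow from that choice. CTNS and SLC38A9, which did not pass the threshold, had 0.926 with each other and 0.840 and 0.836 with SPNS1.

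In position, 4 of the 10 genes lie on chromosome 16 (GRCh37), which holds 4.85% of tested genes with a position, among them the 3 that were higher in sgZNF507. SPNS1 spans 28985542 to 28995869 on the plus strand, SLC38A7 58699013 to 58718674 on the minus strand, CLCN7 1494935 to 1525078 on the minus strand and CLN3 28485432 to 28506896 on the minus strand. Over the 1029 tested genes of that chromosome, the median log2 fold change in sgZNF507 against EV was 0.0052. The 10 tested protein-coding genes nearest to each had medians of 0.0038 around SPNS1, 0.01 around SLC38A7 and 0.03 around CLCN7. None of these neighbours was called around SPNS1 and SLC38A7, and 1 was called around CLCN7.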

How the data were processed

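Strand-specific, ribosome-depleted RNA-seq libraries were made from 2 biological replicates per group. The authors clipped reads with the Fastx Toolkit, removed ribosomal reads with Bowtie, mapped the rest to hg19 with TopHat2 and counted genes with featureCounts. The deposited values are raw counts per gene, neither normalized nor pooled. PCR duplicates cannot be told from separate molecules, and all intervals cover the spread between libraries only.

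The quasi-likelihood test of edgeR (version 4.0.16, R version 4.3.3) was used. After filterByExpr, 22010 genes were kept, scaled by TMM and fitted with glmQLFit on all 6 libraries (common dispersion 0.0052). Each contrast was run through glmQLFTest, with Benjamini-Hochberg adjustment across the 22010 genes. Standard errors come from the F statistic and are approximate. Replicates differed beyond sampling noise (chi-square per degree of freedom 6.38 to 9.60). On simulated counts for sgZNF507 against EV, with 200 of 21579 genes changed 2-fold, 193 were recovered with 11 other calls. The changed genes were taken only from those above a minimum mean count, and the spread was set from the mean count alone. Smaller changes, such as those of the genes described here, were not simulated. Symbols and lengths came from the GENCODE annotation of GRCh37, which matched 96.1% of 57773 identifiers. NEFL had no match. Plots used Python 3.11.15 and matplotlib 3.10.9.

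The genes described and all lists were chosen with earlier results of these data known. Named are the 10 genes, ZNF146 and ZNF507. From each other list, named are genes past the threshold, the 3 furthest from 0 in log2 fold change per comparison, the 3 highest per length in EV, and paralogs. For each of the 10 past the threshold, the 3 genes most like it by Pearson correlation of log2(CPM + 0.5) are also named. GNPTG and other genes of chromosome 16 in the closing section were picked with their values in view.

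The motif search was added after the fold changes were seen. It covered 3 motifs and both the first listed and any listed start of each gene (RefSeq, GRCh38.p14). A search over the 42 other transporters was also run and was void, because fewer than 80% of them had a promoter entry. The stretches printed were chosen after the matches were seen. Protein sequences were not used here.

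Alternatives were other scalings, other filters, DESeq2 1.42.0, only the 4 libraries compared, a replicate block and leaving out each library.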

Additional observations from a re-analysis of the deposited data

How the results depend on the processing

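With 2 libraries per group, leaving out a library leaves a group with 1, which is then assumed to vary like the others. Leaving out each library in turn gave 0 to 3 of the 10 genes called in sgZNF507 against EV and 0 to 2 in sgZNF507 against sgZNF146, and the median log2 fold change of the 10 genes in sgZNF507 against EV was 0.05 to 0.24. In sgZNF507 against EV, the log2 fold change over the 15 alternatives was 0.87 to 0.92 for SPNS1 (called in 11), 0.51 to 0.71 for SLC38A7 (called in 14), 0.37 to 0.54 for CLCN7 (called in 12) and -0.64 to -0.28 for MCOLN1 (called in 2). With only the 4 libraries compared, edgeR called 2 of the 10 genes in each sgZNF507 comparison, losing CLCN7 against EV and SPNS1 against sgZNF146, while DESeq2 called 3. Without the filter on low counts, 1 of the other transporters (CLCN6) was called in sgZNF507 against sgZNF146. None of the 10 genes was called in sgZNF146 against EV under the alternatives, but DESeq2 with the replicate block gave an adjusted p for CLCN7 only and so could not call the other 9. No fold change past the threshold reversed under any alternative. Over all genes, calls went from 40, 0 and 38 (sgZNF507 against EV, sgZNF146 against EV, sgZNF507 against sgZNF146) to 101, 19 and 112 without the filter, and to 12 in sgZNF507 against EV without EV replicate 1.

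The groups share replicate numbers 1 and 2 in the labels, with no statement that a number marks a shared day or batch. Same-numbered libraries deviated together weakly, with correlations of 0.191, 0.242 and 0.215 between pairs of groups. With the replicate block in edgeR, 4 of the 10 genes were called in sgZNF507 against EV (MCOLN1 added) and 4 against sgZNF146, and among the other transporters 1 (CLCN6) and 2 (CLCN6 and SLC36A1), respectively. With the block in DESeq2, 3 of the 10 were called in each, with 0 of the others against EV and 1 (CLCN6) against sgZNF146. Calls over all genes in edgeR rose to 121, 33 and 196 with the block. The cause was not tested.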

Other observations

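On chromosome 16, 7 of 1029 tested genes were called in sgZNF507 against EV (0.68%, against 0.182% of all tested genes), all of them higher: GNPTG, CLCN7, NAGPA, SPNS1, SLC38A7, ATP6V0D1 and VAC14. These were singled out after their values were seen. GNPTG is the 1 called neighbour of CLCN7, and both GNPTG and NAGPA, which act in mannose 6-phosphate tagging of lysosomal enzymes, were also among the genes closest in pattern to SPNS1 or SLC38A7.

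Within groups, the library numbered 2 had the higher CPM in 9 of the 10 genes in EV, 8 in sgZNF146 and 8 in sgZNF507, whereas over all tested genes the shares were 49.8%, 50.5% and 51.2%. Replicate numbers have no order, the 10 genes share their libraries, and no test was made.

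Counts within a library give the balance of CLCN7 to MCOLN1 without any scaling between libraries. The ratio was 4.75 and 4.18 in EV, 4.60 and 4.48 in sgZNF146, and 9.60 and 7.42 in sgZNF507. SPNS1 to CLN3, which lie on the same chromosome, gave 0.796 and 0.617 in EV, 0.621 and 0.836 in sgZNF146, and 1.30 and 1.11 in sgZNF507. As the values of these genes were known when the ratios were chosen, the ratios are a description.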
